A study of Mus musculus with 24 samples.

Results

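The galectin genes Lgals1, Lgals3, Lgals8 and Lgals9 and the gene of the galectin-binding protein Lgals3bp were followed through 24 RNA samples of the mouse colon carcinoma cell line MC38. These 5 genes were chosen by symbol, with earlier results of these data known, and are 5 of the 52636 genes in the deposited table. All 5 passed the filter on low values in every comparison. The samples come from 8 lines that carry different glycans on their surface, with 3 samples per line.

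MC38-WT is the unmodified line (passages 7 to 9), and it is the only line cultured without puromycin. MC38-MOCK#1 received an empty CRISPR/Cas9 construct. MC38-COSMC KO is a knockout of C1galt1c1, the chaperone that the T-synthase needs to extend O-glycans. MC38-CMAS KO is a knockout of Cmas, the enzyme that activates sialic acid, and MC38-DKO is labelled as lacking both genes. These 4 lines were taken at passages 4 to 6. MC38-MOCK#2 (passages 6 to 8) is the control of the lines labelled MC38-FUT4 (passages 7 and 8) and MC38-FUT9 (passages 6 to 8), in which CRISPR-dCas-VPR was directed at a fucosyltransferase gene. According to the methods of the study, the C1galt1c1 knockout is a population sorted in bulk for strong lectin binding and not a single clone, and for the other edited lines the selection is not given in the sources used here. The 3 samples of a line are harvests of a single cultured population, so all p-values below measure the spread between these samples. Samples 1 and 3 of the line labelled MC38-FUT4 share a passage number.

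The values are normalized counts, which are read counts that the authors scaled per library and rounded. Their totals lay between 10911849 and 12263307 per sample, and a single read was worth an estimated 0.756 to 1.67 normalized counts. C1galt1c1 had 144 ± 19.5 normalized counts in MC38-COSMC KO and 238 ± 15.9 in MC38-MOCK#1 (SD, n = 3 each), and its RNA was lower by limma (log2 fold change -0.73, adjusted p = 0.0128). In MC38-DKO it did not differ detectably from MC38-CMAS KO (log2 fold change 0.01, adjusted p = 1). Cmas was lower than in MC38-MOCK#1 in MC38-CMAS KO (-1.82, adjusted p = 0.00168) and in MC38-DKO (-1.57, adjusted p = 0.00235). In the line labelled MC38-FUT4, Fut4 was at 0 or 1 in all samples while Fut9 had 189 ± 19.1 normalized counts (SD, n = 3), so the RNA goes against that label. Fut9 had 757 ± 172 normalized counts in MC38-FUT9 (SD, n = 3). Leukocyte markers summed to between 0 and 18 normalized counts per sample over 8 genes. Of 8 colon epithelium markers, Epcam, Cdh1 and Krt18 did not exceed 3 in any sample, although MC38 is a line from colon carcinoma. Krt20 had 263 to 468 normalized counts in the line labelled MC38-FUT4, 30 to 44 in MC38-CMAS KO and at most 6 in the others. Of 7 markers of endothelium and fibroblasts, the endothelial Kdr, Pecam1 and Cdh5 were at 16 or below in every sample. The fibroblast markers were expressed, with 401 to 1427 normalized counts for Pdgfra and 27 to 1100 for Pdgfrb. Col1a1 had 19 to 255 and Dcn 0 to 417.

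Galectins are soluble lectins that bind β-galactosides on glycoproteins and glycolipids and cross-link them into lattices at the cell surface. Extension of glycans by galactose creates their ligands, whereas capping by sialic acid and other changes of the glycan ends alter which galectins can bind. Galectin-1 is a homodimer of a single carbohydrate-recognition domain, galectin-3 carries a long N-terminal tail through which it oligomerizes, and galectin-8 and galectin-9 hold a pair of different domains on a single chain. Galectin-3-binding protein is a large secreted glycoprotein that is itself a ligand. Tumor cells release several of these proteins, and galectin-1, galectin-3 and galectin-9 are known for dampening T cell responses, while galectin-8 marks damaged endosomes inside the cell. Galectin-9 and galectin-3-binding protein are known to be induced by interferons.

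Per kb of exon, Lgals1 was the most abundant of the 5 transcripts in every line. Its median level over the 24 samples was 16659 normalized counts per kb, against 2608 for Lgals3, 174 for Lgals8, 56.6 for Lgals3bp and 50.3 for Lgals9. Lgals1 made up between 78.0% ± 0.816 (SD, n = 3) of their summed level per kb in MC38-COSMC KO and 88.1% ± 0.143 (SD, n = 3) in MC38-MOCK#1. The share of Lgals3 ran the opposite way, from 8.66% ± 0.765 in MC38-MOCK#1 to 21.1% ± 0.645 in MC38-COSMC KO (SD, n = 3 each). These genes make up most of the sum, so their shares are bound to run in opposite ways. In level, both were higher in MC38-COSMC KO than in MC38-MOCK#1. In a limma fit over all 8 lines, each of the 5 genes differed among lines, as did 48.2% of the 20944 genes tested. By its F statistic Lgals3 ranked 74 among these genes, Lgals1 658, Lgals9 1883, Lgals3bp 1902 and Lgals8 2684. Between the line with the highest and the line with the lowest mean normalized count, the ratio was 1.90 for Lgals1, 4.32 for Lgals3, 1.94 for Lgals8, 29.0 for Lgals9 and 112 for Lgals3bp. The last 2 genes also varied most between samples of 1 line, up to 5.63-fold for Lgals9 and 6.74-fold for Lgals3bp, whereas Lgals1 varied by at most 1.19-fold.

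**Figure D1:**
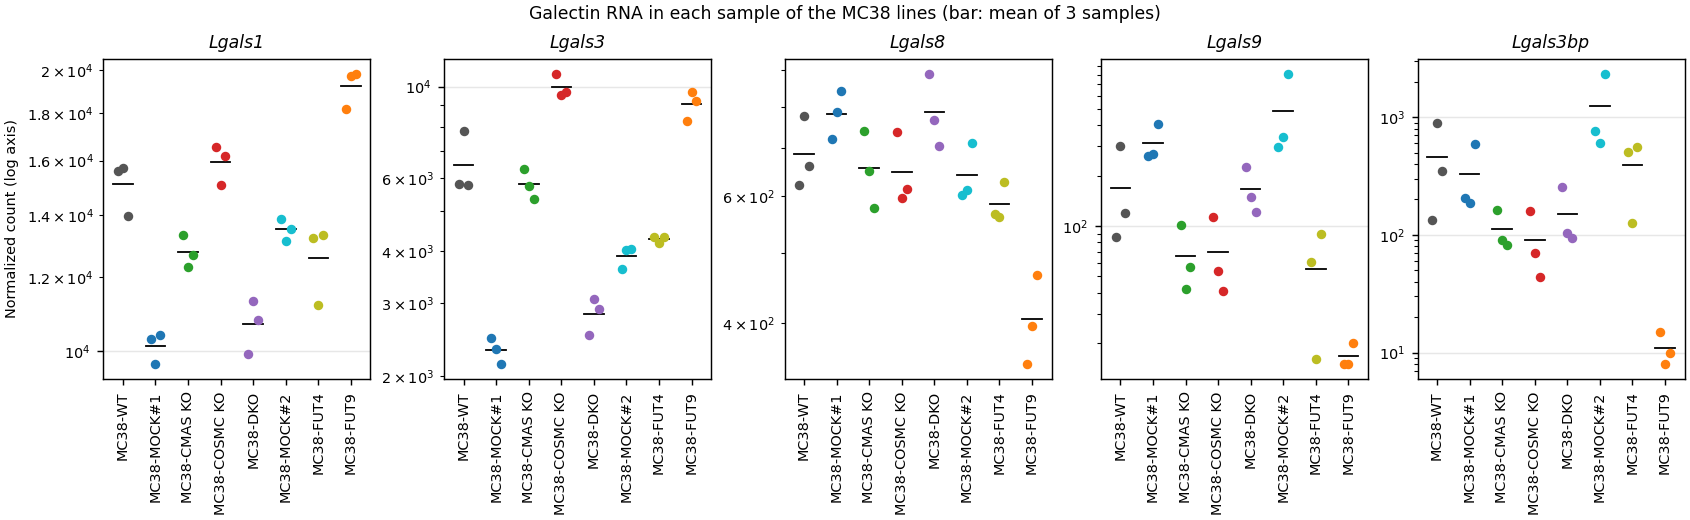
Normalized counts (log axis) of the 5 genes in each of the 24 samples, by line, with points for samples and bars for the mean of 3 samples. Lgals3 is highest in MC38-COSMC KO and MC38-FUT9, and Lgals9 and Lgals3bp are lowest in MC38-FUT9, at 15 to 20 and 8 to 15 normalized counts.

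Lgals1 (ENSMUSG00000068220) lies on the plus strand of chromosome 15 of GRCm38, from 78926725 to 78930465, in 4 exon blocks with 800 bases of exon. Its normalized counts in samples 1, 2 and 3 were 10310, 9688 and 10411 in MC38-MOCK#1. They were 16540, 15084 and 16166 in MC38-COSMC KO, 13325, 12296 and 12674 in MC38-CMAS KO, and 9940, 11313 and 10811 in MC38-DKO. MC38-DKO overlapped MC38-MOCK#1, while the single knockouts lay above it. The unmodified MC38-WT had 15582, 15723 and 13953. Among the remaining lines, MC38-MOCK#2 had 13867, 13129 and 13515, the line labelled MC38-FUT4 13221, 11206 and 13329, and MC38-FUT9 18186, 19716 and 19830. In the order of line means, MC38-FUT9 stood first and apart from every other line. MC38-COSMC KO and MC38-WT followed and overlapped each other, and both stood apart from the lines below. MC38-MOCK#2, MC38-CMAS KO, the line labelled MC38-FUT4, MC38-DKO and MC38-MOCK#1 came next, and each of them overlapped its neighbor.

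Lgals3 (ENSMUSG00000050335) lies on the plus strand of chromosome 14, from 47367751 to 47386160, in 8 exon blocks with 1858 bases of exon. It had 2472, 2328 and 2138 normalized counts in MC38-MOCK#1 and 10744, 9563 and 9691 in MC38-COSMC KO. In MC38-CMAS KO it had 6333, 5759 and 5348, and in MC38-DKO 2518, 3062 and 2897. The 4 Cas9 lines did not overlap, with MC38-DKO just above MC38-MOCK#1 and below the single knockouts. MC38-WT had 5832, 7820 and 5785 and overlapped MC38-CMAS KO. MC38-MOCK#2 had 3618, 4027 and 4047, the line labelled MC38-FUT4 4342, 4190 and 4339, and MC38-FUT9 8237, 9721 and 9234. In the order of line means only MC38-COSMC KO with MC38-FUT9 and MC38-WT with MC38-CMAS KO overlapped as neighbors. The other 5 neighboring pairs stood apart. The 7 markers of endothelium and fibroblasts also differed between lines, with sums of 553 to 739 in MC38-DKO, 660 to 949 in MC38-MOCK#1, 598 to 834 in the line labelled MC38-FUT4, 975 to 1196 in MC38-COSMC KO, 1024 to 1179 in MC38-CMAS KO, 922 to 2056 in MC38-WT, 1184 to 2060 in MC38-MOCK#2 and 1578 to 2538 in MC38-FUT9. Pdgfrb, a receptor of mesenchymal cells, was higher in MC38-COSMC KO than in MC38-MOCK#1 (log2 fold change 2.35, adjusted p = 0.0122 by limma). It was also higher in MC38-CMAS KO (1.93, adjusted p = 0.0458 by limma). Of the markers, 1 of 6 tested was called higher in MC38-COSMC KO and 2 of 5 in MC38-CMAS KO, with 0 lower. Of all genes, 6.17% and 3.02% were called higher there. Mean Pdgfra was 626 in MC38-MOCK#1, 529 in MC38-COSMC KO and 541 in MC38-CMAS KO. Mean Pdgfrb was 717 in MC38-MOCK#2, 475 in MC38-WT, 469 in MC38-COSMC KO and 105 in MC38-MOCK#1. The part of these markers in the Lgals3 differences was not tested.

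Lgals8 (ENSMUSG00000057554) lies on the minus strand of chromosome 13, from 12439415 to 12464944, in 12 exon blocks with 3688 bases of exon. It overlaps Heatr1 on the opposite strand, which had 1661 to 3566 normalized counts per sample. The library kit keeps the strand, and reads that overlap more than 1 gene were excluded from the counts by the authors. Whether the counting used the strand is not given in the sources used here, so it is uncertain how reads of the overlap were treated. In MC38-FUT9 Lgals8 had 351, 397 and 467 normalized counts, below all samples of all other lines. MC38-MOCK#2 had 603, 613 and 711, and the line labelled MC38-FUT4 567, 561 and 629. Line means of the other 5 lines ran from 650 in MC38-COSMC KO to 787 in MC38-DKO, and each neighbor in that order overlapped the next.

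Lgals9 (ENSMUSG00000001123) and Lgals3bp (ENSMUSG00000033880) lie on the minus strand of chromosome 11. Lgals9 runs from 78962974 to 78984946 with 2137 bases of exon in 11 blocks, and Lgals3bp from 118392751 to 118402092 with 2847 bases of exon in 6 blocks. Promoter windows of 300 bases, from 250 before to 50 after the start site, were taken from RefSeq (GRCm38.p6). A window was found for 4 of the 5 genes, and Lgals1 was not matched. The windows of Lgals9 (chr11:78984875-78985174, minus strand) and Lgals3bp (chr11:118401910-118402209, minus strand) are printed because these 2 genes moved together from sample to sample. Capitals mark matches to the core letters of the interferon-stimulated response element, which are GAAA, any 2 bases and GAAA again, searched on both strands:

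Lgals9: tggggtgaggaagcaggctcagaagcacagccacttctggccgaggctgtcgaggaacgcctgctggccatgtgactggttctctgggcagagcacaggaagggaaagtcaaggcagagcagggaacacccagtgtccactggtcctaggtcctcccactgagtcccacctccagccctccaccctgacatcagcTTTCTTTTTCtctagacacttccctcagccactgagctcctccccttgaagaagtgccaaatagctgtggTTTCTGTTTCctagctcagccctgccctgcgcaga

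Lgals3bp: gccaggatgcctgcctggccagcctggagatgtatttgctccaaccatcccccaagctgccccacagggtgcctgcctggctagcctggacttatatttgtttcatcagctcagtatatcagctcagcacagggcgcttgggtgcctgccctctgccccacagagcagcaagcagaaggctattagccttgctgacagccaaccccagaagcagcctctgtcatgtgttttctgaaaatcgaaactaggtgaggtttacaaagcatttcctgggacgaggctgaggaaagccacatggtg

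The Lgals9 window held 2 matches, both on the strand opposite to the printed one. The first begins at base -55 and the second at base 15, counted from the start site as base 0, and they do not overlap. The windows of Lgals3bp, Lgals3 and Lgals8 held none. These letters were in 3.44% of all 32851 windows, and of 10 interferon-stimulated genes with a window 7 did. The letters TTCNNNGAA, the core of the gamma-activated site, with N for any base, were in none of the 4 windows and in 8.30% of all. A match is a description of the letters in the window, and binding was not measured.

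Lgals9 had 262, 270 and 408 normalized counts in MC38-MOCK#1, against 114, 54 and 41 in MC38-COSMC KO and 101, 42 and 57 in MC38-CMAS KO. MC38-DKO lay between them with 225, 150 and 122. MC38-WT had 86, 301 and 120 and spanned most of the range of these lines. MC38-MOCK#2 had 298, 339 and 813, the line labelled MC38-FUT4 61, 16 and 90, and MC38-FUT9 15, 15 and 20. In the order of line means from MC38-MOCK#2 downward, MC38-DKO and MC38-COSMC KO were the only neighbors that stood apart.

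Lgals3bp had 207, 186 and 593 normalized counts in MC38-MOCK#1, 159, 70 and 44 in MC38-COSMC KO, 163, 90 and 82 in MC38-CMAS KO and 255, 103 and 94 in MC38-DKO. MC38-WT had 133, 896 and 350, MC38-MOCK#2 760, 598 and 2343, and the line labelled MC38-FUT4 505, 127 and 555. In MC38-FUT9 it had 15, 8 and 10, and this was the only line that stood apart from its neighbor. Within a line, the highest sample had between 1.88 and 6.74 times as much Lgals3bp RNA as the lowest.

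The study asked how loss of C1galt1c1 changes MC38 cells, with MC38-MOCK#1 as the reference. It also compared MC38-WT with the control and left out genes that changed in the same direction in both comparisons. Lgals9 is among the genes that the study kept. That step was not applied here, and Lgals1 and Lgals3 were called higher in both comparisons, as given below. Against MC38-MOCK#1, Lgals1 and Lgals3 were higher and Lgals9 was lower in MC38-COSMC KO. Of the 22172 genes tested 11.6% were called, 6.17% higher and 5.39% lower. Lgals3 rose 4.32-fold (log2 fold change 2.11, SE 0.0726, adjusted p = 3.41e-05) and Lgals1 1.57-fold (0.65, SE 0.0559, adjusted p = 0.00111). All folds are on the scale of log2 of the normalized count plus 1. Lgals9 fell 4.79-fold (-2.26, SE 0.367, adjusted p = 0.0103). Lgals3bp had a log2 fold change of -1.83 and did not pass (adjusted p = 0.0821; 0.0429 with chromosome medians removed and 0.0475 with a minimum mean of 10), although its samples did not overlap, which held for 28.4% of all genes tested. Lgals8 had -0.27 (95% interval -0.50 to -0.04, adjusted p = 0.135). On chromosome 15, where Lgals1 lies, the median log2 fold change of 485 genes was 0.20 and that of all genes 0.00. Chromosome medians here and below are over genes with a mean of at least 10, whereas that of all genes is over every gene tested. The part of such shifts in the Lgals1 difference was not tested, and with chromosome medians removed Lgals1 was still called. The Lgals9 call was lost in 5 of 6 fits that left out a sample, namely without any 1 of the MC38-MOCK#1 samples and without sample 2 or 3 of MC38-COSMC KO, as well as without a trend (adjusted p = 0.052) and with no filter (adjusted p = 0.0526).

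Against the unmodified MC38-WT, none of the 5 genes was called in MC38-COSMC KO by limma, where 0.581% of the 21843 genes were called and 3100 had an unadjusted p below 0.05. Lgals3 was 1.56-fold higher in mean and its samples did not overlap, as for 17.3% of all genes (log2 fold change 0.64, 95% interval 0.35 to 0.93, adjusted p = 0.0822). With all 8 lines in a single fit, Lgals3 passed the threshold. Lgals1 had 0.08 (95% interval -0.12 to 0.28), Lgals9 -1.19 (-2.34 to -0.04) and Lgals3bp -2.12 (-3.67 to -0.57). MC38-WT in turn had more Lgals1 (0.57, adjusted p = 0.0126) and Lgals3 (1.47, adjusted p = 0.00271) than MC38-MOCK#1, with 5.51% of the 21621 genes called and 23.4% without overlap. The Lgals1 call was lost without any 1 of the MC38-MOCK#1 samples, and the Lgals3 call without sample 2 of MC38-MOCK#1. With chromosome medians removed Lgals1 had 0.36 (adjusted p = 0.109), beside a chromosome 15 median of 0.22, and without a trend its adjusted p was 0.0607. MC38-WT and MC38-MOCK#1 differ in construct, puromycin and passage, which cannot be told apart. These comparisons share their samples with each other.

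In MC38-CMAS KO the same genes were called against MC38-MOCK#1 as in MC38-COSMC KO, with 5.76% of the 22024 genes called, 3.02% higher and 2.73% lower, and both comparisons share the MC38-MOCK#1 samples. Lgals3 rose 2.51-fold (1.33, adjusted p = 0.0012), Lgals1 1.26-fold (0.33, adjusted p = 0.025), and Lgals9 fell 4.86-fold (-2.28, adjusted p = 0.0134). All genes but Lgals8 had samples that did not overlap, as 24.3% of all genes did. Lgals3bp had -1.41 (adjusted p = 0.142) and Lgals8 -0.26 (adjusted p = 0.227). The Lgals1 call was lost in each of 6 fits without 1 sample, without a trend (adjusted p = 0.135), with no filter (adjusted p = 0.0925) and with chromosome medians removed (0.18, adjusted p = 0.255), beside a chromosome 15 median of 0.15. The Lgals9 call was lost in 5 of the 6 fits, all but that without sample 1 of MC38-CMAS KO, and with no filter (adjusted p = 0.0547).

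MC38-DKO showed no called difference from MC38-MOCK#1 in any of the 5 genes by limma. Only 20 of 21738 genes (0.092%) were called there, with 1632 at an unadjusted p below 0.05. Lgals3 had a log2 fold change of 0.29 (95% interval 0.08 to 0.50, adjusted p = 0.476) and Lgals1 0.08 (-0.10 to 0.25, adjusted p = 0.847). Lgals9 had -0.93 (-1.49 to -0.38, adjusted p = 0.362) and Lgals3bp -1.06 (-2.18 to 0.05, adjusted p = 0.682). The samples of Lgals3 and of Lgals9 did not overlap, as for 11.2% of all genes. Lgals8 had 0.00 (-0.23 to 0.24). Compared directly with MC38-CMAS KO, MC38-DKO had 2.06-fold less Lgals3 (-1.04, SE 0.0953, adjusted p = 0.00109), and 6.93% of the 21858 genes were called and 24.5% did not overlap. Lgals1 (-0.26, adjusted p = 0.0808) and Lgals9 (1.35, adjusted p = 0.0551) did not pass, and neither did Lgals8 (0.26, adjusted p = 0.255) or Lgals3bp (0.34, adjusted p = 0.698). With chromosome medians removed Lgals1 had -0.03 (adjusted p = 0.899 by limma), beside a chromosome 15 median of -0.15.

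The 4 Cas9 lines were used to compare the change that goes with the C1galt1c1 knockout label with Cmas intact and with Cmas knocked out. Each line is a single cultured population, so the knockouts and other differences between lines cannot be told apart. The difference between MC38-COSMC KO and MC38-MOCK#1 was set against that between MC38-DKO and MC38-CMAS KO in a single limma fit. All 5 genes passed, with 22.1% of the 21396 genes called. For Lgals3 the changes were 2.11 and -1.04, which differ by 3.15 on the log2 scale (SE 0.124, adjusted p = 1.45e-09). For Lgals1 they were 0.65 and -0.26 (0.46 and -0.03 with chromosome medians removed), a difference of 0.91 (SE 0.0944, adjusted p = 1.23e-05). For Lgals9 they were -2.26 and 1.35, a difference of -3.61 (SE 0.524, adjusted p = 0.000212). Lgals3bp differed by -2.18 (adjusted p = 0.0457) and Lgals8 by -0.53 (adjusted p = 0.0291). The calls of Lgals1, Lgals3 and Lgals9 held in 12 of 12 fits without 1 sample, whereas those of Lgals3bp and Lgals8 held in 5 and 4. The median of this difference was 0.35 on chromosome 15 and -0.30 on chromosome 13, where Lgals8 lies, and with chromosome medians removed the Lgals1 difference was 0.48 (adjusted p = 0.0042), that of Lgals8 -0.19 (adjusted p = 0.496) and that of Lgals3bp -2.17 (adjusted p = 0.0543), so that the latter calls were lost. The level of C1galt1c1 RNA given above does not check the second knockout of MC38-DKO, so the direction rests on the label.

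**Figure D2:**
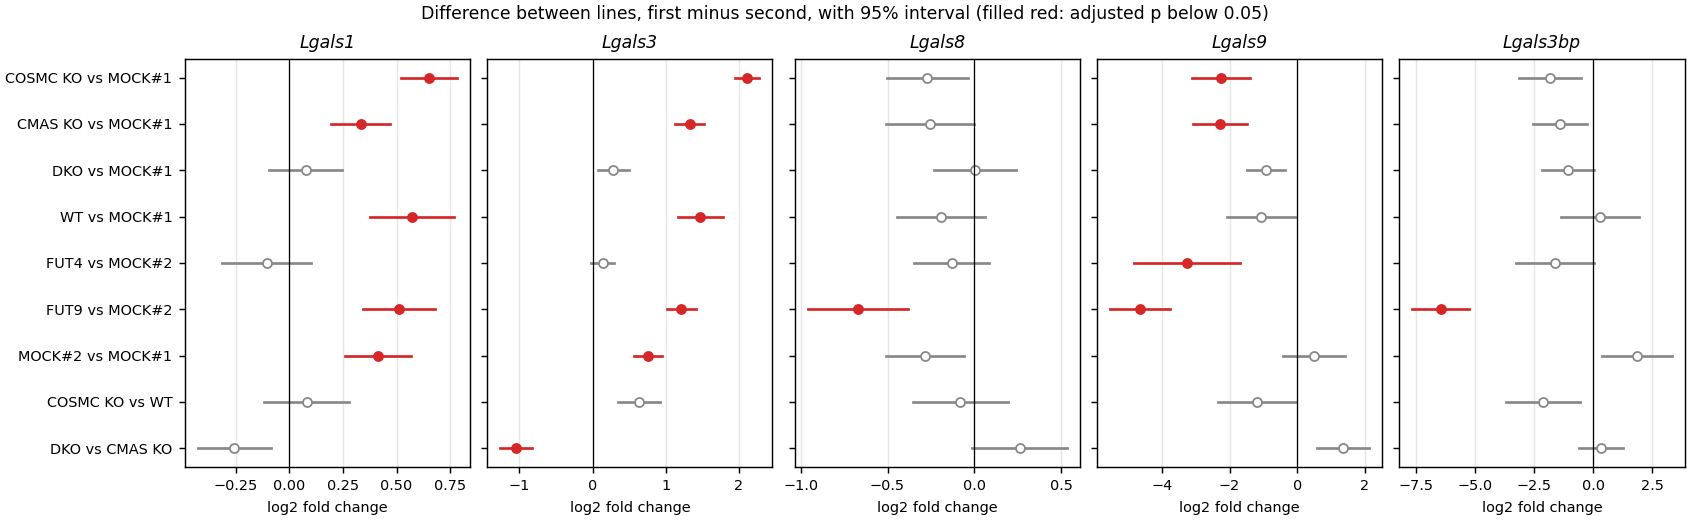
Log2 fold change (points) with 95% interval (bars) of each gene in 9 comparisons of lines, first line minus second, where filled red points have an adjusted p below 0.05 by limma. FUT4 stands for the line with that label. Lgals3 has the most filled points and is 2.11 higher in MC38-COSMC KO than in MC38-MOCK#1, while Lgals9 and Lgals3bp are farthest below 0 in MC38-FUT9.

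In MC38-FUT9 all 5 genes were called against MC38-MOCK#2, where 24.1% of the 21480 genes were called, 12.1% higher and 12% lower. All 5 had samples that did not overlap, as 36.8% of all genes did. Lgals3 rose 2.32-fold (1.22, SE 0.0854, adjusted p = 0.000339) and Lgals1 1.42-fold (0.51, SE 0.0706, adjusted p = 0.00316). Lgals8 fell 1.59-fold (-0.67, SE 0.122, adjusted p = 0.00903), and this call was lost without sample 2 of MC38-FUT9. Lgals9 fell 24.9-fold (-4.64, SE 0.375, adjusted p = 0.000531) and Lgals3bp 87.7-fold (-6.45, SE 0.506, adjusted p = 0.000495). These RNAs were at 8 to 20 normalized counts in MC38-FUT9, so a few reads move the size of either fold. Without sample 3 of MC38-MOCK#2, which had the most Lgals3bp, its fold was 57.9 (-5.86, adjusted p = 0.00227).

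The line labelled MC38-FUT4 shares the MC38-MOCK#2 samples with that comparison. Only Lgals9 was called in it, 9.52-fold lower (-3.25, SE 0.66, adjusted p = 0.0184), and 16.1% of the 21734 genes were called, 8.1% higher and 8.04% lower. This call was lost in 5 of 6 fits without 1 sample, all but that without sample 2 of the line labelled MC38-FUT4, where the fold was 5.80 (-2.54, adjusted p = 0.0426). It was also lost with no filter (adjusted p = 0.0689) and without a trend (adjusted p = 0.0577). Lgals3bp had -1.63 (95% interval -3.28 to 0.02, adjusted p = 0.175), Lgals3 0.14 (-0.02 to 0.30, adjusted p = 0.222), Lgals1 -0.11 (-0.31 to 0.10) and Lgals8 -0.13 (-0.35 to 0.08). The samples of Lgals9, Lgals3bp and Lgals3 did not overlap, as for 32.1% of all genes. The median of 448 genes on chromosome 14, where Lgals3 lies, was 0.28 in this comparison.

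The control lines also differed from each other. MC38-MOCK#2 had 1.69-fold more Lgals3 (0.75, adjusted p = 0.00308) and 1.33-fold more Lgals1 (0.41, adjusted p = 0.0108) than MC38-MOCK#1, with 11.3% of the 21667 genes called and 28.7% without overlap. The Lgals1 call was lost without sample 1 or sample 2 of MC38-MOCK#1, with chromosome medians removed (0.26, adjusted p = 0.124) and without a trend (adjusted p = 0.0608). Lgals3bp was 3.59-fold higher in mean and did not pass (1.84, adjusted p = 0.111). Lgals9 (0.50, adjusted p = 0.465) and Lgals8 (-0.28, adjusted p = 0.108) did not pass either. With the replicate number as a block in limma, Lgals3bp (adjusted p = 0.0207) and Lgals8 (adjusted p = 0.0484) were called. MC38-MOCK#1 thus had the lowest mean of Lgals1 and of Lgals3 among the 8 lines. The lines that exceed it by limma include MC38-WT and MC38-MOCK#2, whose glycan genes were not edited.

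Lgals1 and Lgals3 ran in parallel over the 24 samples (Pearson r = 0.90 of log2 values) and less closely once line means were removed (r = 0.51). Samples of a line share a culture, and all values of a sample share its scaling, so these correlations are given as descriptions without a test. Lgals8 had r = -0.70 with Lgals1 over the samples, and 0.27 after removal of line means.

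**Figure D3:**
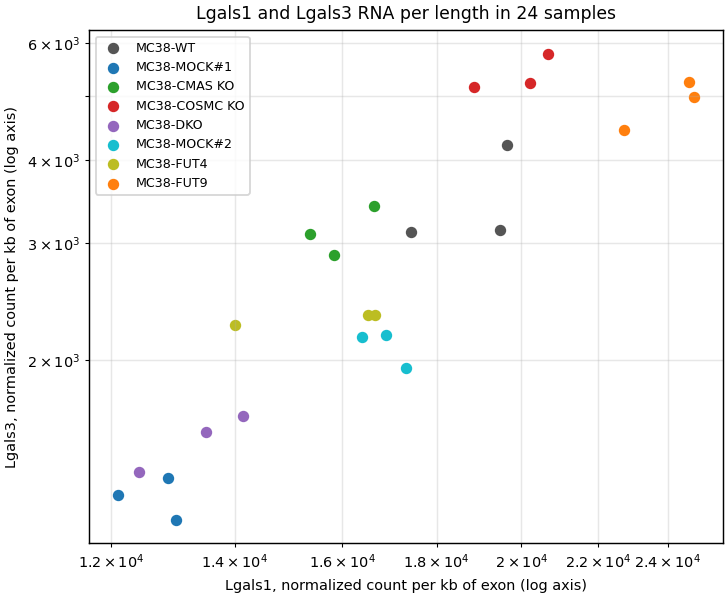
Lgals3 against Lgals1 in the 24 samples, both in normalized counts per kb of exon on log axes, with a color for each line. Samples of MC38-MOCK#1 and MC38-DKO lie at the lower left, and those of MC38-COSMC KO and MC38-FUT9 at the upper right.

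Lgals9 and Lgals3bp moved together within lines. Their correlation was 0.83 over the 24 samples and 0.91 after removal of line means. In 7 of 8 lines both were highest in the same sample, which was sample 1 in MC38-CMAS KO, MC38-COSMC KO and MC38-DKO, sample 2 in MC38-WT, and sample 3 in MC38-MOCK#1, MC38-MOCK#2 and the line labelled MC38-FUT4. A list of 14 interferon-stimulated genes, among them Irf7, Isg15 and Ifit1, was set beside them. The list mean, taken over log2 values with a pseudocount of 1, was highest in the same sample as Lgals9 in 8 of 8 lines and as Lgals3bp in 7 of 8, while the lowest samples differed in some lines. With line means removed, the list correlated with Lgals3bp at r = 0.97, with Lgals9 at r = 0.89 and with Lgals8 at r = 0.70, against 0.26 for Lgals1 and 0.28 for Lgals3 (n = 24 samples).

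In MC38-WT the list mean was 5.69, 8.92 and 7.64 in samples 1, 2 and 3, and in MC38-MOCK#2 6.78, 6.38 and 9.08. In MC38-FUT9 it was 4.31, 3.80 and 4.48, the lowest of all samples. Against MC38-MOCK#2, 11 of the 14 genes were lower in MC38-FUT9 and 0 higher, where 12% of all genes were called lower. The median log2 fold change was -3.86, beside 0.01 over all genes. Isg15, a ubiquitin-like antiviral protein, fell by 3.94 on the log2 scale (adjusted p = 0.0118), and Oasl2, a sensor of the OAS family, by 5.03 (adjusted p = 0.00544). In the line labelled MC38-FUT4 0 of the 14 were called, beside 16.1% of all genes, with a median of -0.21, although Lgals9 was lower there. The line means of the list were 7.39 ± 1.24 in that line and 7.41 ± 1.46 in MC38-MOCK#2 (SD, n = 3 each). In MC38-COSMC KO 1 of the 14 was called lower than in MC38-MOCK#1, where 5.39% of all genes were called lower. The list median was -0.89. The gene called was Usp18, which removes Isg15 from proteins (-2.30, adjusted p = 0.0194 by limma). In MC38-CMAS KO 0 were called, beside 5.76% of all genes, with a median of -0.53. The part of the interferon-stimulated genes in the differences of Lgals9 and Lgals3bp was not tested. In bulk RNA, fewer cells that express a gene and less RNA per cell cannot be told apart.

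**Figure D4:**
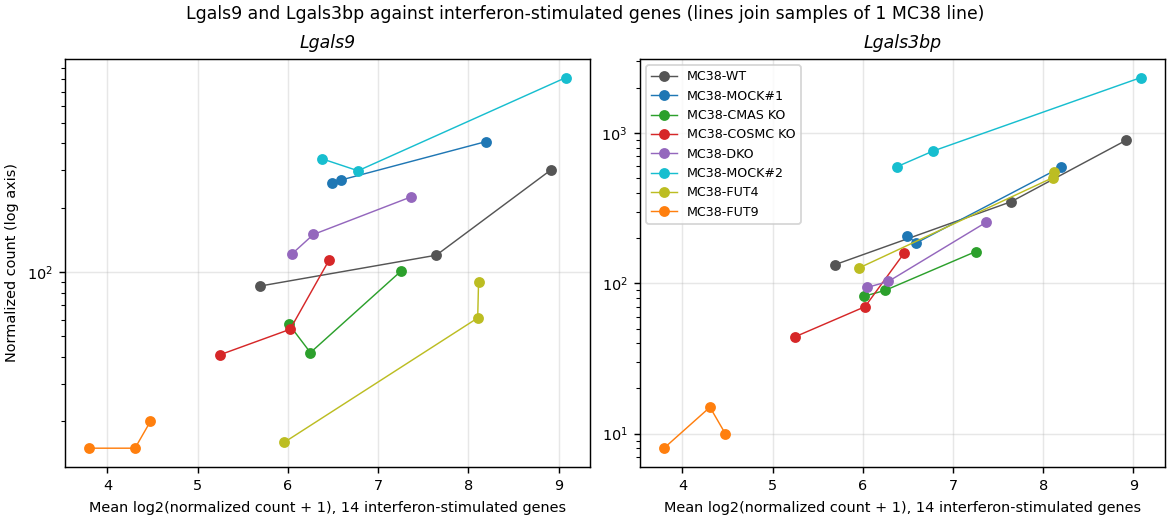
Normalized counts (log axis) of Lgals9 and Lgals3bp against the mean log2(normalized count + 1) of 14 interferon-stimulated genes, with a point for each sample and lines that join the samples of 1 MC38 line. MC38-FUT9 lies at the lower left of both panels, and in the line labelled MC38-FUT4 Lgals9 is low at list means like those of MC38-MOCK#2.

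Of the remaining galectin genes, 6 were measured. Lgalsl, a galectin-like protein, had 46 to 205 normalized counts per sample, Lgals4 2 to 14, and Lgals2, Lgals7, Lgals12 and Grifin 0 to 2. Lgalsl was higher in MC38-FUT9 than in MC38-MOCK#2 (0.94, adjusted p = 0.00393) and lower in MC38-DKO than in MC38-CMAS KO (-1.51, adjusted p = 0.00456), and it passed neither in MC38-COSMC KO nor in MC38-CMAS KO against MC38-MOCK#1.

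A list of 16 glycoproteins that galectins can bind was tested as well. In MC38-COSMC KO 1 was higher and 2 were lower than in MC38-MOCK#1, with a median of 0.00, where 11.6% of all genes were called. Nrp1, a co-receptor of vascular growth factors and a partner of galectin-1, was higher (0.59, adjusted p = 0.00415), while Mcam (-0.36, adjusted p = 0.0494) and Tnfrsf9 (-1.36, adjusted p = 0.0132) were lower. Mcam is an adhesion molecule, and Tnfrsf9 encodes the co-stimulatory receptor 4-1BB, a partner of galectin-9. Nrp1 was also higher in MC38-CMAS KO (0.74, adjusted p = 0.00712) and in MC38-FUT9 (1.98, adjusted p = 0.000333), but lower in the line labelled MC38-FUT4 (-1.30, adjusted p = 0.00266). In MC38-FUT9 3 of the 16 were higher and 4 lower, against 24.1% of all genes called, and in the line labelled MC38-FUT4 7 were higher and 3 lower, against 16.1%. The lysosomal glycoproteins Lamp1 and Lamp2 were lower in both (Lamp1 -0.38 and -0.53, Lamp2 -0.53 and -0.52, in that order). In MC38-DKO 0 of the 16 were called against MC38-MOCK#1. Against the unmodified MC38-WT, 0 of the 16 were called in MC38-COSMC KO, beside 0.581% of all genes. Mean Tnfrsf9 was 35.3 in MC38-WT, 36.3 in MC38-COSMC KO and 93.3 in MC38-MOCK#1. In the same order, mean Nrp1 was 408, 457 and 304, and mean Mcam 242, 334 and 431.

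Of 18 genes that build, extend or cap galectin ligands, 16 could be tested in MC38-COSMC KO, of which 3 were higher and 1 was lower than in MC38-MOCK#1, beside 6.17% and 5.39% of all genes. The lower gene was the targeted C1galt1c1. The higher genes were Mgat1 (0.37, adjusted p = 0.0135) and Mgat4b (0.39, adjusted p = 0.0149), which start and branch N-glycans, and the sialyltransferase St3gal4 (0.33, adjusted p = 0.0318). Mgat1, Mgat4b and St3gal4 were also the higher genes in MC38-CMAS KO, where Cmas was the lower one, and the MC38-MOCK#1 samples are shared. In MC38-FUT9 5 of 16 were higher, beside 12.1% of all genes, including Mgat4b (1.04, adjusted p = 0.000302), St3gal4 (0.81, adjusted p = 0.00868) and the targeted Fut9, and Gcnt1, which builds core-2 O-glycans, was lower (-0.66, adjusted p = 0.0241). In the line labelled MC38-FUT4 4 of 18 were higher, beside 8.1% of all genes, Fut9 among them, and B4galt1, a galactosyltransferase, was lower (-0.42, adjusted p = 0.0148). Against the unmodified MC38-WT, 0 of 16 were called in MC38-COSMC KO, beside 0.581% of all genes. Mean Mgat1 was 756 in MC38-WT, 854 in MC38-COSMC KO and 661 in MC38-MOCK#1. In the same order, mean Mgat4b was 1180, 1167 and 888, and mean St3gal4 552, 431 and 343.

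In a list of 8 genes chosen for the response to damaged endosomes and lysosomes, 2 were higher and 1 was lower in MC38-COSMC KO than in MC38-MOCK#1, where 11.6% of all genes were called. The autophagy receptor Sqstm1 (0.49, adjusted p = 0.0198) and the autophagy kinase Ulk1 (0.35, adjusted p = 0.0125) were higher, and the receptor Tax1bp1 was lower (-0.32, adjusted p = 0.00833). In MC38-FUT9 2 of the 8 were higher and 2 lower than in MC38-MOCK#2, with a median of -0.12, where 24.1% of all genes were called. Ulk1 was among the higher (0.48, adjusted p = 0.00484 by limma). Against the unmodified MC38-WT, 0 of the 8 were called in MC38-COSMC KO, beside 0.581% of all genes.

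The genes whose log2 levels ran most closely with each galectin were sought among 13501 genes with a mean of at least 10. For Lgals1 they were Kcnh5 (r = 0.95), Samd4 and Cuedc2, and for Lgals3 Dap (r = 0.96), Lmna and Samd4. For Lgals8 they were Zbtb8os (r = 0.95) and Cx3cl1. For Lgals9 they were Tbcd (r = 0.95), Slc25a14 and Irf1, and for Lgals3bp Ifi44 (r = 0.95), Smpd1 and Sp100. Each r is over 24 samples that come from 8 lines.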

How the data were processed

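The authors sequenced polyadenylated RNA of 24 samples as single reads of 50 bases, aligned them to GRCm38 with HISAT2 2.0.4 and counted reads per gene with featureCounts of Subread 1.5.0-p3, per the study's methods and processing notes. The deposited unit is a score, since the authors scaled counts per library with edgeR 3.18.1 (library size and TMM) and rounded them. The values are not raw counts and no count model was used. Here log2 of the value plus 1 was tested with limma 3.58.1 under R 4.3.3, with moderated variances that follow the mean level, on the 3 samples per compared line. A gene was kept with at most 4 zeros among 6 samples (8 of 12, 16 of 24), p-values were adjusted over all genes tested (Benjamini-Hochberg), and an adjusted p below 0.05 called a gene. The fit was tested on simulated data. The genes, lists and tests were chosen with earlier results of these data known. Genes named beside the 5 are the targeted genes, genes of the fixed lists, and the 3 genes with the highest Pearson r to each of the 5. A gene that this rule gives for Lgals8 is not reported here. Exon lengths and gene coordinates, on GRCm38, come from the deposited table. Reads per sample, estimated from the spacing of rounded values, were 6759106 to 16229893. Alternatives were the pseudocount, the filter, 2 other scalings, removal of chromosome medians, no trend, all 8 lines in a single fit, the replicate number as a block, a further limit of 1 on the absolute log2 fold change, and the removal of each sample. Same-numbered samples were checked for pairing by their correlation across genes after removal of line means. In none of the 9 comparisons were all 3 pairs above 0.1, a limit set here, so the numbers were not taken to pair samples. All pairs were positive in MC38-DKO against MC38-CMAS KO (lowest 0.064) and in MC38-FUT9 against MC38-MOCK#2 (lowest 0.093). The same held in MC38-MOCK#2 against MC38-MOCK#1 (lowest 0.082), so pairing is not excluded there.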

Additional observations from a re-analysis of the deposited data

Results flagged for a closer look

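All 5 genes differed in how they changed with the C1galt1c1 knockout label between cells with and without Cmas, by the limma test of that difference, by which 22.1% of the 21396 genes tested were called. The difference of changes, MC38-COSMC KO minus MC38-MOCK#1 less MC38-DKO minus MC38-CMAS KO, was 0.91 for Lgals1, 3.15 for Lgals3, -0.53 for Lgals8, -3.61 for Lgals9 and -2.18 for Lgals3bp on the log2 scale. With chromosome medians removed, that of Lgals1 was 0.48 and that of Lgals8 -0.19. The calls of Lgals8 and Lgals3bp held in 4 and 5 of 12 fits without 1 sample. C1galt1c1 RNA changed by -0.73 in the first pair and by 0.01 in the second, and this difference passed as well (adjusted p = 0.0201). The cause was not tested.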

How the results depend on the processing

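Of the 5 genes, 3 were called in MC38-COSMC KO, 3 in MC38-CMAS KO, 0 in MC38-DKO, 2 in MC38-WT and 2 in MC38-MOCK#2 against MC38-MOCK#1. The line labelled MC38-FUT4 had 1 and MC38-FUT9 5 against MC38-MOCK#2, MC38-COSMC KO 0 against MC38-WT, MC38-DKO 1 against MC38-CMAS KO, and the difference of changes 5. Without 1 sample, these counts were 2 to 3, 1 to 2, 0 to 0, 0 to 2, 1 to 2, 0 to 1, 4 to 5, 0 to 0, 1 to 1 and 3 to 5, in that order, and the test over 8 lines stayed at 5. The number of all genes called fell in the same fits, from 2563 to between 667 and 2119 in MC38-COSMC KO, from 1268 to between 113 and 852 in MC38-CMAS KO and from 1192 to between 31 and 703 in MC38-WT. With the replicate number as a block, which the data did not show to pair samples, 1 was called in MC38-COSMC KO, 0 in MC38-CMAS KO, 0 in MC38-WT and 4 in MC38-MOCK#2, out of 4, 1, 0 and 2168 genes called in all. No filter on low values left 1 in MC38-CMAS KO, 0 in the line labelled MC38-FUT4 and 3 for the difference of changes. Removing chromosome medians left 1 each in MC38-WT and MC38-MOCK#2 and 3 for the difference of changes, and gave 1 against MC38-WT. Without a trend, 1 was called in MC38-WT, 1 in MC38-MOCK#2, 0 in the line labelled MC38-FUT4 and 3 for the difference of changes. Asking also for an absolute log2 fold change above 1 left 1 in MC38-WT, 0 in MC38-MOCK#2, 3 in MC38-FUT9 and 3 for the difference of changes. A fit of all 8 lines gave 1 against MC38-WT and 2 in MC38-DKO against MC38-CMAS KO, as did a minimum mean of 10 (2) and median-of-ratios scaling (2) in the latter.

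No gene changed direction where it was called. Among differences that were not called, Lgals8 in MC38-DKO against MC38-MOCK#1 turned to -0.013 at the same total and -0.023 with chromosome medians removed, and lay between -0.087 and 0.080 without 1 sample. Without 1 sample, Lgals3bp lay between -0.39 and 0.98 in MC38-WT against MC38-MOCK#1 and between -0.11 and 0.65 in MC38-DKO against MC38-CMAS KO, and Lgals8 between -0.17 and 0.011 in MC38-COSMC KO against MC38-WT. Lgals3 in the line labelled MC38-FUT4 turned to -0.046 with chromosome medians removed. The cause of these changes was not tested. Lgals9 and Lgals3bp at 8 to 20 normalized counts in MC38-FUT9 rest on few reads.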
